A study of Mus musculus with 4 samples.

Results

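Genes for transcription factors and cofactors of blood stem and progenitor cells, Mecom, Gata2, Gata1, Myb, Runx1, Runx2, Runx3, Lmo2, Tal1 and Ldb1, were followed in leukaemia cells with and without a conditional knockout of Ybx1. They were chosen by symbol, and all 10 had a row among the 28141 genes of the deposited table and entered the test. Polyadenylated RNA was sequenced from bone marrow leukaemia cells, labelled LSCs, of C57BL/6 mice in a series on chronic myeloid leukaemia. There were 2 groups of 2 libraries: WT, labelled wild type, and cKO, cells with a conditional knockout of Ybx1, a gene for a protein that binds RNA and DNA. The driver of the deletion, the oncogene, the age of the mice, any treatment, and whether the replicates came from separate animals are not given in the sources used here. The p-values therefore reflect only how far these libraries spread, and that spread may be technical.

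These factors form the transcriptional core of early blood cells. TAL1 binds DNA next to GATA1 or GATA2, and LMO2 and LDB1 join these proteins into one complex, LMO2 as the bridge and LDB1 as the part that pairs with a second copy of itself and brings distant sites together. GATA2 serves stem and progenitor cells and mast cells, and GATA1 serves red cells, megakaryocytes, mast cells and eosinophils. RUNX1, RUNX2 and RUNX3 share a DNA-binding domain and the partner CBFB; RUNX1 is needed to form blood stem cells, RUNX2 is best known in bone and RUNX3 in T and NK cells. MYB keeps progenitors dividing, and the Mecom locus encodes zinc finger proteins, EVI1 among them, that act in stem cell self-renewal.

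Promoter sequences were available for 9 of the 10 genes in a RefSeq table of GRCm38.p6, with 16 start sites; Lmo2 had no entry. The 3 RUNX genes are shown first because they shared a paired RUNX motif near 1 start site each. The 14 capital letters in the following 30-base stretches, on the strand of the gene, mark this pair of ACCACA copies. The stretches lie at chr16:92826025-92826054 on the minus strand for Runx1, chr17:44814583-44814612 on the minus strand for Runx2 and chr4:135120503-135120532 on the plus strand for Runx3.
Runx1: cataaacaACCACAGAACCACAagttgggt
Runx2: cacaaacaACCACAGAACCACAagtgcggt
Runx3: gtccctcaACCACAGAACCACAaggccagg
The pair began at base 29 counted from the RefSeq start in Runx1 and at base 24 in Runx2, and stood at bases -134 to -121 in Runx3. Of 32851 promoter windows of 300 bases in the table, 4 held these 14 letters on either strand (0.0122%). The fourth belonged to Gm16225, a noncoding RNA gene that runs away from Runx3 and whose window takes in the same Runx3 site.

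Single motifs were searched on both strands in the 250 bases before each start, and 0 matches to different motifs overlapped. GATAA, the core of the GATA factor site, was found in 4 of the 16 windows, namely both windows of Mecom, 1 of 2 of Tal1 and 1 of 3 of Ldb1, against 22.6% of all windows. The E-box CAGATG, which TAL1 can bind with its partners, was found in 1 window, the first of Mecom (14.4% of all). The MYB motif AACGG was found in 3 windows (14.5% of all) and the RUNX motif TGTGGT in 2 (14% of all). Such a match is a description of letters. The upstream windows of Gata1 (chrX:7967911-7968160, minus strand), Gata2 (its first start, chr6:88193641-88193890, plus strand) and Tal1 (its first start, chr4:115056176-115056425, plus strand) are shown because these genes were lower in cKO, with any GATAA or CAGATG match in capitals. For Mecom, 30 bases around the GATAA match of its first window are shown (chr3:30509781-30509810, minus strand). They lie within an annotated exon. The E-box match of that window lies just before them, at bases -57 to -52 from the start, and is not shown.
Gata1: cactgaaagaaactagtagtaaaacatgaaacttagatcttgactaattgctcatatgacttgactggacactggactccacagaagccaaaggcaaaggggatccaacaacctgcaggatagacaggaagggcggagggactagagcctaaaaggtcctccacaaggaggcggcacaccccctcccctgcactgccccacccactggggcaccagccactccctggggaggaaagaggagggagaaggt
Gata2: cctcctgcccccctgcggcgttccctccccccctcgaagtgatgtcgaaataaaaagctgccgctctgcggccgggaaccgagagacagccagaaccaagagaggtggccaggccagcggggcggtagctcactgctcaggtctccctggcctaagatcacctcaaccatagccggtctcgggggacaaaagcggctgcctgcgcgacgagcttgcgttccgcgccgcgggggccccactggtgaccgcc
Tal1: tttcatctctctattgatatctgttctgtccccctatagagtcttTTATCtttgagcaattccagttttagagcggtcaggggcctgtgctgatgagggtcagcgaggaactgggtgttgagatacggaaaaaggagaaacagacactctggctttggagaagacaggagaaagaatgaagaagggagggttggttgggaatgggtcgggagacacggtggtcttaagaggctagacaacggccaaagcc
Mecom: acaagatctccaaatcaaagtGATAAatcg
The capitals in Tal1 are GATAA read on the other strand and lie at bases -205 to -201 from the start, and those in Mecom at bases -30 to -26. The Gata1 and Gata2 windows hold neither motif.

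The targeted gene was lower in both cKO libraries. Ybx1 had log2 levels of 9.31 and 9.41 in WT, against 8.19 and 8.13 in cKO. It fell 2.29-fold (log2 change -1.20, SE 0.08, limma adjusted p = 1.1e-11). Levels are log2 values obtained by multiplying the deposited log-scale scores by 0.693, which was inferred from replicate noise. Read as plain log2, every log2 fold change would be 1.44 times as large, with the same p-values. The table held no counts, so depth was not known from it. The 4 libraries had sums of back-transformed levels between 11074317 and 12134026, higher in cKO. Scaling the libraries to equal sums, an alternative chosen after seeing the data, moved every log2 fold change by -0.12. It is given below wherever it changed the call of a gene whose calls were tracked across the alternatives. Those of Adgre1 and Plek, named below for their levels, were not tracked.

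Of the 10 genes, 4 fell (Mecom, Gata2, Tal1 and Gata1), 2 rose (Runx1 and Runx2) and 4 did not pass the test (Myb, Runx3, Ldb1 and Lmo2), at a limma adjusted p under 0.05. That is 60.0% of the genes, where 37.4% of the 15527 tested genes were called, 17.8% lower and 19.5% higher. Calls were commoner among better expressed genes, and of the 9957 tested genes at a mean level at least that of Lmo2, the lowest of the 10, 53.7% were called. The WT and cKO libraries did not overlap for 9 of the 10 genes, against 65.1% of all tested genes. The median log2 fold change was -0.20 over the 10 genes and 0.00 over all tested genes. In bulk RNA, fewer cells of a type and less RNA per cell cannot be told apart. Under equal library sums the count was again 6, but Myb and Runx3 entered as falls and Runx1 and Runx2 dropped out, and of all calls 34.5% were then higher, against 52.3%.

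**Figure D1:**
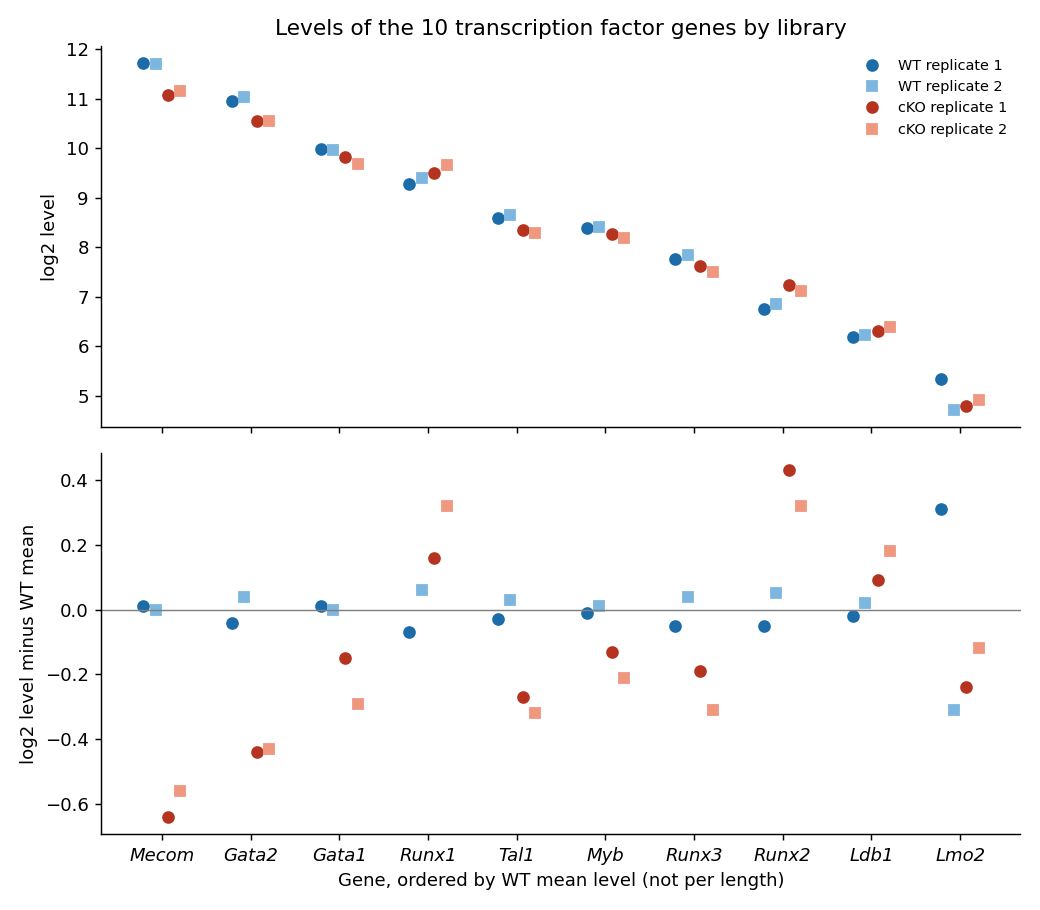
The upper panel gives the log2 level of each of the 10 genes in each of the 4 libraries (WT blue, cKO red, circles replicate 1, squares replicate 2), and the lower panel the same values minus the WT mean. The cKO points of Mecom, Gata2, Gata1, Tal1, Myb and Runx3 lie below both WT points, those of Runx1, Runx2 and Ldb1 above, and those of Lmo2 between them.

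**Figure D2:**
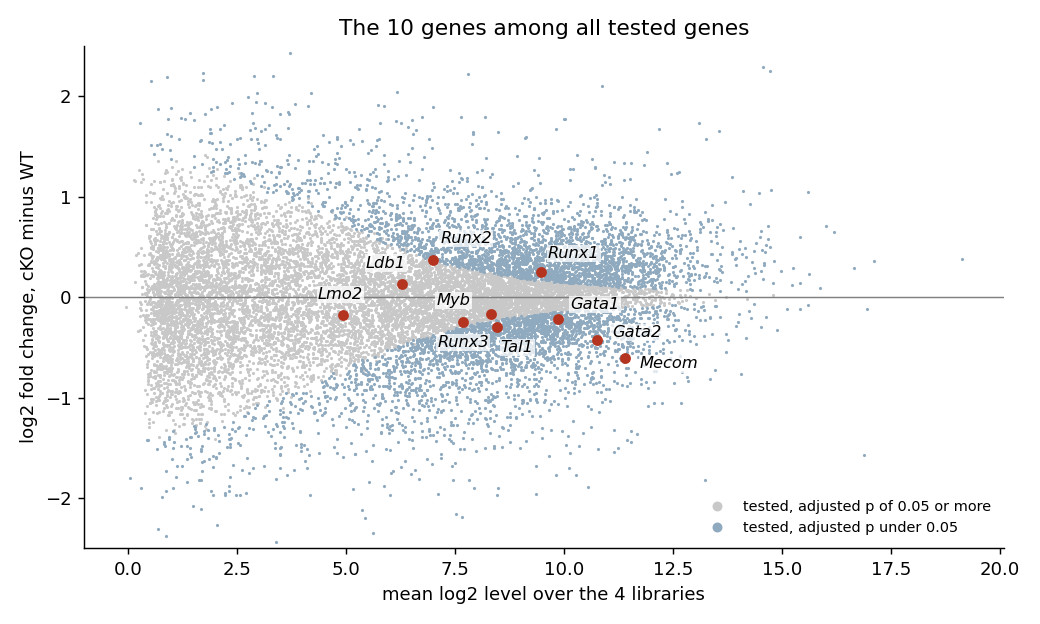
Each dot is 1 of the tested genes, placed by its mean log2 level over the 4 libraries and its log2 fold change (cKO minus WT); the 10 genes are the labelled red dots, and 22 genes lie beyond the vertical axis limits of 2.5 either way. The 10 genes lie within the body of the cloud, and 22.4% of the tested genes had a larger size of change than Mecom.

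Mecom, on chromosome 3 from 29951296 to 30548008 in GRCm38, changed most. Its log2 levels were 11.72 and 11.71 in WT, against 11.07 and 11.15 in cKO. Both cKO libraries were far below WT relative to the replicate spread, with means of 11.71 ± 0.0043 for WT and 11.11 ± 0.053 for cKO (SD, n = 2 each). This was a 1.52-fold fall (log2 change -0.60, SE 0.04, limma adjusted p = 5.2e-12), and the change ranged from -0.64 to -0.56 when any 1 library was left out. The locus gives rise to a long form that joins MDS1 and EVI1 and to shorter forms, which a value per gene does not separate. An antisense gene, Mecomos, shares 81 bases with the exons of Mecom (0.7% of them).

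Gata2 fell next most. On chromosome 6 from 88193891 to 88207032, it had log2 levels of 10.95 and 11.03 in WT, against 10.55 and 10.56 in cKO. The pairs were tight and well apart, and the fall was 1.35-fold (log2 fold change -0.43, SE 0.05, limma adjusted p = 3.1e-08). Of the 10 genes, only Mecom and Gata2 passed the test under every alternative run. With a prior variance that did not follow the level, both came near the threshold (limma adjusted p = 0.036 for Mecom and 0.049 for Gata2). Gata1, Runx1 and Runx2 lost their calls with no filter on low values, and Gata1, Runx1, Runx2 and Tal1 with a prior variance that did not follow the level.

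Gata1 and Tal1 fell by less. Gata1, on chromosome X from 7959260 to 7978071, stood at 9.98 and 9.97 in WT, against 9.82 and 9.68 in cKO. Its cKO libraries were both lower, and the fall was 1.17-fold (log2 fold change -0.22, SE 0.06, limma adjusted p = 0.0046). Without cKO replicate 2 the log2 fold change of Gata1 was -0.15 and the call was lost (limma adjusted p = 0.060). Tal1, on chromosome 4 from 115056426 to 115071755, stood at 8.59 and 8.65 in WT, against 8.35 and 8.30 in cKO. This 1.23-fold fall (log2 change -0.30, SE 0.09, limma adjusted p = 0.0088) lost its call without WT replicate 2 (log2 fold change -0.26, limma adjusted p = 0.097).

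The remaining parts of the complex did not pass the test. Ldb1, on chromosome 19 from 46031570 to 46045214, had log2 levels of 6.20 and 6.24 in WT, against 6.31 and 6.40 in cKO (log2 fold change 0.13, SE 0.18, limma adjusted p = 0.63). Its cKO libraries lay above WT by a margin smaller than the SE, and under equal library sums the value was 0.01. On the other strand, the exons of Pprc1 share 177 bases with those of Ldb1 (3.8%); Pprc1 was the better expressed of the pair and was lower in cKO (log2 fold change -0.62, SE 0.06, limma adjusted p = 3.3e-09), and the sources used here do not say whether strand entered the counting. Lmo2, on chromosome 2 from 103957986 to 103981878, had the widest spread of the 10 genes, at 5.34 and 4.72 in WT and 4.79 and 4.91 in cKO. Both cKO values of Lmo2 lay between the WT values (log2 fold change -0.18, SE 0.29, limma adjusted p = 0.69), and without WT replicate 1 the sign turned (0.13).

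Within each library, the levels of paired factors can be compared free of any scaling between libraries. The log2 ratio of Gata2 to Gata1 was 0.97 and 1.06 in WT and 0.73 and 0.88 in cKO, so the cKO libraries held less Gata2 per Gata1 (0.867 times the WT ratio). The log2 ratio of Gata1 to Tal1 overlapped between the groups, at 1.39 and 1.31 in WT and 1.48 and 1.38 in cKO. That of Mecom to Gata2 was 0.77 and 0.68 in WT and 0.52 and 0.59 in cKO, so Mecom was lower in cKO also relative to Gata2. With 2 libraries against 2, a two-sided exact permutation test cannot go below p = 0.33, the value it gives for any pair of groups that does not overlap.

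Of the RUNX genes, Runx1 and Runx2 rose and Runx3 did not pass the test; no setting called Runx3 together with Runx1 or Runx2. Runx1, on chromosome 16 from 92601466 to 92826149, had log2 levels of 9.28 and 9.41 in WT, against 9.51 and 9.67 in cKO. Both cKO libraries were above both WT libraries, a 1.19-fold rise (log2 fold change 0.25, SE 0.07, limma adjusted p = 0.0071). This call was lost without WT replicate 1 (log2 fold change 0.18, limma adjusted p = 0.10), without cKO replicate 2 (0.17, limma adjusted p = 0.083) and under equal library sums (0.12, limma adjusted p = 0.18).

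Runx2, on chromosome 17 from 44495987 to 44814797, stood at 6.76 and 6.86 in WT, against 7.24 and 7.13 in cKO, a 1.30-fold rise (log2 fold change 0.37, SE 0.14, limma adjusted p = 0.046). It lies close to the threshold and lost its call without WT replicate 1 (limma adjusted p = 0.23), without WT replicate 2 (limma adjusted p = 0.097), without cKO replicate 1 (limma adjusted p = 0.15) and under equal library sums (0.25, limma adjusted p = 0.19). The antisense gene Runx2os1 shares 519 bases with its exons (5.9%). Runx3, on chromosome 4 from 135120652 to 135177990, stood at 7.76 and 7.85 in WT, against 7.62 and 7.5 in cKO, lower in both cKO libraries without passing the test (log2 fold change -0.25, SE 0.12, limma adjusted p = 0.099). Under equal library sums Runx3 passed as a fall (-0.37, limma adjusted p = 0.011).

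Ratios within the RUNX family do not depend on scaling between libraries. The log2 ratio of Runx2 to Runx3 was -1.0 and -0.99 in WT and -0.38 and -0.36 in cKO, a 1.54-fold higher ratio with little spread in either group. That of Runx1 to Runx3 was 1.52 and 1.56 in WT and 1.89 and 2.18 in cKO (1.41-fold higher), whereas that of Runx1 to Runx2 overlapped between the groups. Per kb of exon, Runx3 made up 40.3% and 39.8% of the summed RUNX level in WT and 33.6% and 30.1% in cKO. Such shares rest on the inferred scale of the scores. Runx1 held 48.5% ± 0.4 of it in WT, against 54.2% ± 3.4 in cKO, and Runx2 held 11.4% ± 0.1, against 13.9% ± 1.0 (SD, n = 2 each). The summed level per kb was 112 ± 5.96 for WT and 119 ± 1.95 for cKO (SD, n = 2 each), in units of the back-transformed table values. Unlike the ratios, this sum depends on the scaling between libraries, and library sums were higher in cKO. None of these ratios can pass an exact permutation test with 2 libraries against 2, for which p = 0.33 is the smallest value.

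**Figure D3:**
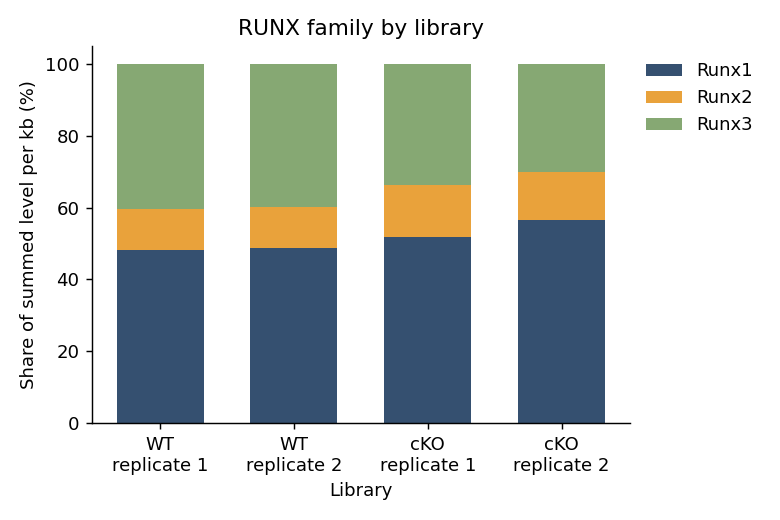
Stacked bars give the share of Runx1, Runx2 and Runx3 in their summed back-transformed level per kb of exon (%), in each of the 4 libraries. The Runx3 part is near 40% in both WT libraries (40.3% and 39.8%) and smaller in both cKO libraries (33.6% and 30.1%).

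Myb, on chromosome 10 from 21124935 to 21160984, had log2 levels of 8.40 and 8.42 in WT, against 8.28 and 8.20 in cKO. It was lower in both cKO libraries but did not pass (log2 fold change -0.17, SE 0.09, limma adjusted p = 0.17), while under equal library sums it passed as a fall (-0.29, limma adjusted p = 0.012). The antisense gene Gm26577 shares 559 bases with the exons of Myb (6.3%) and was too low to be tested.

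**Figure D4:**
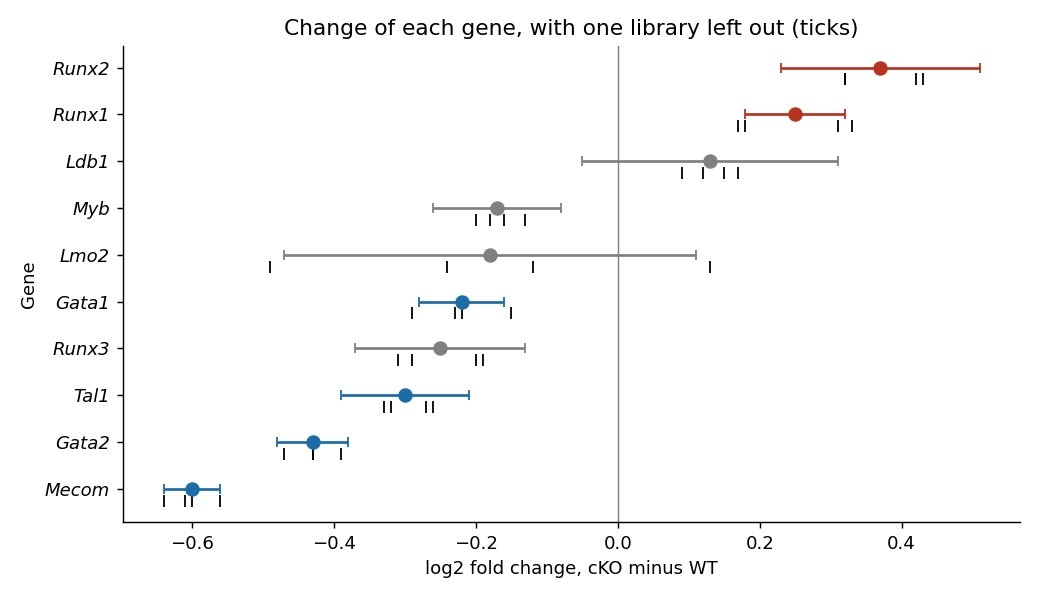
Points give the log2 fold change (cKO minus WT) of each of the 10 genes with its SE, blue for genes that fell, red for genes that rose and grey for genes that did not pass; black ticks give the value with 1 library left out. The ticks of Mecom lie between -0.64 and -0.56, those of Runx1 between 0.17 and 0.33, and those of Lmo2 on both sides of 0, from -0.49 to 0.13.

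Levels between genes were compared per kb of exon, in units of the back-transformed table values. Both the levels and their order rest on the inferred scale, and could differ if the scores were read as plain log2. Exon length takes in every annotated transcript, 3 for Gata1, 5 for Gata2 and 17 for Mecom, whichever were expressed. Gata1 was the highest of the 10 genes in WT, at 412 ± 3.19 (SD, n = 2), followed by Gata2 at 376 ± 14.2 and Mecom at 270 ± 0.802 (SD, n = 2 each). A wide step down led to Tal1 at 89.8 ± 2.84, Runx1 at 54.2 ± 3.35, Runx3 at 44.8 ± 1.99 and Myb at 38.0 ± 0.427 (SD, n = 2 each). Ldb1 at 16.2 ± 0.264, Lmo2 at 15.4 ± 4.62 and Runx2 at 12.7 ± 0.623 (SD, n = 2 each) came last, and neighbours among these 3 overlapped in WT while all other neighbours did not. The order was the same in cKO for the first 8 genes, with Gata1 at 354 ± 24.5, Gata2 at 279 ± 1.06 and Mecom at 178 ± 6.54 (SD, n = 2 each). At the end of the order Runx2 (16.5 ± 0.865) stood above Lmo2 (13.3 ± 0.82) in cKO (SD, n = 2 each). The scaffold genes Lmo2 and Ldb1 were thus measured far below the GATA genes in every library.

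Of 23 partners of the TAL1 and LDB1 complex, 18 were tested, 7 fell and 2 rose, with a median log2 fold change of -0.27. The 50% called lies between the 37.4% of all tested genes and the 53.7% of those at or above the level of Lmo2. Lyl1, the closest relative of Tal1, had log2 levels of 11.70 and 11.73 in WT, against 11.11 and 11.22 in cKO (log2 fold change -0.55, SE 0.04, limma adjusted p = 6.2e-11). Because Lyl1 fell by more than Tal1, the log2 ratio of Tal1 to Lyl1 was -3.11 and -3.08 in WT and -2.77 and -2.92 in cKO. Cbfa2t3, the corepressor ETO2 of this complex, fell 1.37-fold (-0.45, SE 0.04, limma adjusted p = 1.2e-08). Tcf12, whose E protein pairs with TAL1, fell 1.49-fold (-0.57, SE 0.09, limma adjusted p = 9.7e-06). Id1, whose protein takes E proteins away from such pairs, fell 2.11-fold (-1.08, SE 0.15, limma adjusted p = 2.7e-06). The histone deacetylase gene Hdac1 did not pass (-0.09, limma adjusted p = 0.14). It did pass under quantile normalization (-0.15, limma adjusted p = 0.017) and under equal library sums (-0.22, limma adjusted p = 4.0e-04).

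Partners of RUNX, MYB and MECOM moved both ways. Of 17 RUNX partners 16 were tested, 4 rose and 5 fell (median 0.04), 56.2% called. That is against 37.4% of all tested genes and 53.7% of those at or above the level of Lmo2. The acetyltransferase gene Crebbp rose by 0.44 (SE 0.08, limma adjusted p = 7.3e-05) and Tle5, a TLE family gene, by 0.30 (SE 0.07, limma adjusted p = 7.5e-04). Prmt1, for an arginine methyltransferase that acts on RUNX1, had a log2 fold change of -0.33 (SE 0.05, limma adjusted p = 3.0e-06). Sin3a fell by 0.47 (SE 0.11, limma adjusted p = 0.0013), a call lost without WT replicate 1 (limma adjusted p = 0.067). Cbfb, the partner of all 3 RUNX proteins and named here after its values were seen, stood at 8.43 and 8.44 in WT, against 8.61 and 8.75 in cKO (log2 change 0.25, SE 0.09, limma adjusted p = 0.025). The Cbfb call was lost without WT replicate 1 (limma adjusted p = 0.10), without WT replicate 2 (limma adjusted p = 0.086), without cKO replicate 2 (limma adjusted p = 0.17) and under equal library sums (limma adjusted p = 0.28).

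Of 15 relatives and partners of MYB and MECOM, 14 were tested, 4 rose and 4 fell (median 0.01), 57.1% called. The shares among all tested genes and those at or above the level of Lmo2 were 37.4% and 53.7%. Mybl2, the MYB relative of dividing cells, fell 2.88-fold (-1.52, SE 0.22, limma adjusted p = 3.7e-06), and Mybbp1a, for a nucleolar MYB-binding protein, fell 1.55-fold (-0.63, SE 0.04, limma adjusted p = 2.3e-11). The kinase gene Hipk1 rose 1.83-fold (0.87, SE 0.08, limma adjusted p = 1.6e-09) and Ctbp2, for a corepressor that binds EVI1, rose 1.76-fold (0.82, SE 0.11, limma adjusted p = 1.5e-06). Men1 did not pass (-0.12, limma adjusted p = 0.10), although it did under quantile normalization (-0.16, limma adjusted p = 0.027) and under equal library sums (-0.24, limma adjusted p = 5.2e-04).

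Among 24 other stem and progenitor factors, 17 had a row, 15 were tested, 2 rose and 4 fell (median -0.13), a share of 40.0% called. This is near the 37.4% of all tested genes and below the 53.7% of those at or above the level of Lmo2. Gfi1b, a repressor of red cell and megakaryocyte precursors, fell 1.46-fold (-0.54, SE 0.05, limma adjusted p = 5.8e-09), Zbtb16 fell 2.12-fold (-1.09, SE 0.16, limma adjusted p = 3.4e-06) and Etv6 1.30-fold (-0.38, SE 0.09, limma adjusted p = 0.0014). Mycn rose by 0.28 (SE 0.04, limma adjusted p = 8.0e-06). Fli1, an ETS factor that shares many sites with RUNX1, TAL1 and GATA2, stood at 10.08 and 10.03 in WT, against 10.06 and 10.02 in cKO (-0.01, SE 0.05, limma adjusted p = 0.89), and passed under equal library sums (-0.14, limma adjusted p = 0.046). Hhex did not pass (-0.02, SE 0.07, limma adjusted p = 0.83). Meis1, Hlf and Sox4 were among the 7 without a row in the table used here, which is not a level of 0.

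Of 14 genes that earlier work linked to MYB, 10 were tested, 8 fell and 0 rose (median -0.80), a share of 80.0% called. Of all tested genes 17.8% fell, and of those at or above the level of Lmo2, 53.7% were called in either direction. The list was chosen with earlier results of these data known. Summed levels ranged from 21489 to 21972 in WT and from 12741 to 12830 in cKO. Summed levels of lists, here and below, were not scaled to equal library sums, and library sums were higher in cKO. Myc, Ccnb1, Mat2a and Bcl2 fell 1.81-fold, 2.46-fold, 1.67-fold and 1.63-fold (largest limma adjusted p 1.5e-13). Gfi1, another of these, did not pass (log2 fold change -1.16, SE 0.52, limma adjusted p = 0.089), and its value turned on single libraries. It was -0.33 without cKO replicate 1 (limma adjusted p = 0.69) and -1.99 without cKO replicate 2 (limma adjusted p = 0.0026), and Gfi1 passed under equal library sums (-1.28, limma adjusted p = 0.048). Several of these genes also belong to the cell cycle, and what they share with Myb, which did not pass, was not tested. Of 17 blood cell genes that earlier work linked to RUNX1 or RUNX3, 8 were tested, 3 rose and 2 fell (median -0.05). The share called was 62.5%, against 37.4% of all tested genes. Cebpe, a granulocyte factor, rose 2.0-fold (1.0, SE 0.04, limma adjusted p = 5.5e-15) and Spi1, which encodes PU.1, 1.45-fold (0.53, SE 0.05, limma adjusted p = 9.6e-09). Nfkbia and Ccnd3 fell 1.27-fold and 1.20-fold (largest limma adjusted p 3.6e-06).

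Among lineage genes under GATA1 and GATA2, calls went both ways. Of 25 GATA1 erythroid targets 6 had a row and were tested, 1 rose and 2 fell (median -0.08), and their summed level ranged from 2106 to 2269 in WT and from 1946 to 1986 in cKO. The share of these 6 called lay between the 37.4% of all tested genes and the 53.7% of those at or above the level of Lmo2. The globin genes, Alas2 and Klf1 were among the 19 without a row in the table used here. Hemgn fell 2.48-fold (-1.31, SE 0.18, limma adjusted p = 2.8e-06) and Tfrc, the transferrin receptor gene, 1.43-fold (-0.51, SE 0.07, limma adjusted p = 2.3e-06). Both calls were lost with a prior variance that did not follow the level (limma adjusted p = 0.077 for Hemgn and 0.057 for Tfrc). With 1 library left out, the log2 fold change of Hemgn ranged from -1.69 to -0.93. Add2, a membrane skeleton gene, rose by 0.24 (SE 0.06, limma adjusted p = 0.0030), a call lost under equal library sums (0.12, limma adjusted p = 0.14), and Epor did not pass (-0.04, SE 0.12, limma adjusted p = 0.86).

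Of 22 megakaryocyte and platelet genes 19 were tested, 6 rose and 6 fell (median -0.06). The share called was 63.2%, against 37.4% of all tested genes. The summed level ranged from 52881 to 53166 in WT and from 53184 to 53228 in cKO. Scaling to equal library sums would lower the cKO values relative to WT. The highest genes in this sum moved in opposite directions. F2r had mean log2 levels of 14.46 in WT and 13.69 in cKO, and Plek, named here for its level, 14.26 and 14.50. Ppbp and F2rl2 rose 4.29-fold and 2.52-fold, and Itgb3 and F2r fell 3.72-fold and 1.70-fold (largest limma adjusted p 2.3e-12). Of 21 mast cell, basophil and eosinophil genes 10 had a row and 9 were tested, 2 rose and 3 fell (median -0.46), 55.6% called. Among tested genes at or above the level of Lmo2 the share was 53.7%. Their summed level ranged from 7747 to 7942 in WT and from 6754 to 6800 in cKO. Slc18a2, an amine transporter gene, and Hdc, which encodes the enzyme that makes histamine, fell 1.81-fold (SE 0.04 on the log2 scale, limma adjusted p = 6.4e-15) and 2.23-fold (SE 0.24 on the log2 scale, limma adjusted p = 3.7e-04). Without cKO replicate 2 the log2 fold change of Hdc was -0.70 instead of -1.16, and its call was lost with no filter on low values (limma adjusted p = 0.12) and with a prior variance that did not follow the level (limma adjusted p = 0.14). Cd200r3 rose 1.33-fold (0.42, SE 0.05, limma adjusted p = 5.5e-08). The mast cell protease gene Cpa3 rose by 0.14 (SE 0.04, limma adjusted p = 0.0089), a call lost without WT replicate 2 (limma adjusted p = 0.071), without cKO replicate 1 (limma adjusted p = 0.060), under quantile normalization (limma adjusted p = 0.32) and under equal library sums (limma adjusted p = 0.77).

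Markers of other cells moved beside these genes, and their part in the changes of the 10 genes was not tested. Of all tested genes 37.4% were called, 19.5% higher and 17.8% lower, and of those at or above the level of Lmo2, 53.7%. The share of tested genes called was above both 37.4% and 53.7% in the myeloid and the T and NK lists. It lay between them in the B cell and plasmacytoid dendritic cell list and in the bone cell and stromal list. Of 18 myeloid cell genes 10 had a row, 9 rose and 0 fell (median 1.17). Their summed level ranged from 83659 to 84669 in WT and from 149761 to 150577 in cKO. Adgre1, named here for its level, and Lyz2 were the highest of them. Adgre1 had mean log2 levels of 15.82 in WT and 15.91 in cKO, and Lyz2 13.61 and 15.86. Lyz2, Mmp8, Mmp9 and Fcgr3 rose 4.75-fold, 6.72-fold, 3.19-fold and 2.26-fold (largest limma adjusted p 3.8e-18). Ptprc, the pan-leucocyte gene for CD45, was at 12.07 and 12.11 in WT and 12.13 and 12.11 in cKO (log2 fold change 0.03, limma adjusted p = 0.53), although its sign turned under equal library sums (-0.10, limma adjusted p = 0.019) and under quantile normalization (-0.09, limma adjusted p = 0.027), while with equal medians it passed as a rise (0.09, limma adjusted p = 0.027). Of 18 T and NK cell genes 4 had a row, 3 fell (Gzmb, Ccl5 and Lat) and 0 rose (median -0.99), with a summed level from 2076 to 2077 in WT and from 1026 to 1133 in cKO; rows for the defining genes Cd3d, Cd3e and Cd3g were not among those analysed here. Of 11 B cell and plasmacytoid dendritic cell genes 4 had a row, 1 rose (Cd79b) and 1 fell (Cox6a2), with a summed level from 756 to 784 in WT and from 813 to 826 in cKO. A difference this small depends on the scaling, since library sums were higher in cKO. The Cd79b call (limma adjusted p = 0.043) was lost without WT replicate 1, WT replicate 2 or cKO replicate 1 (limma adjusted p = 0.26, 0.062 and 0.20) and under equal library sums (limma adjusted p = 0.31), and that of Cox6a2 without WT replicate 1 (limma adjusted p = 0.078). Of 17 bone cell and stromal genes 12 had a row and 7 were tested, 3 fell (Pecam1, Mmp13 and Tek) and 0 rose, with a median of 0.05 and a summed level from 5634 to 5797 in WT and from 3100 to 3269 in cKO. Pecam1, an endothelial gene that leucocytes also express, made up 4995 and 5182 of this sum in WT and 2777 and 2876 in cKO. Without Pecam1 and Mmp13, the other 10 genes summed to 29 and 35 in WT and to 29 and 30 in cKO, and the bone collagen gene Col1a1 did not pass (log2 fold change 0.05, limma adjusted p = 0.95). Tek (limma adjusted p = 0.018) lost its call without WT replicate 1 (limma adjusted p = 0.20).

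**Figure D5:**
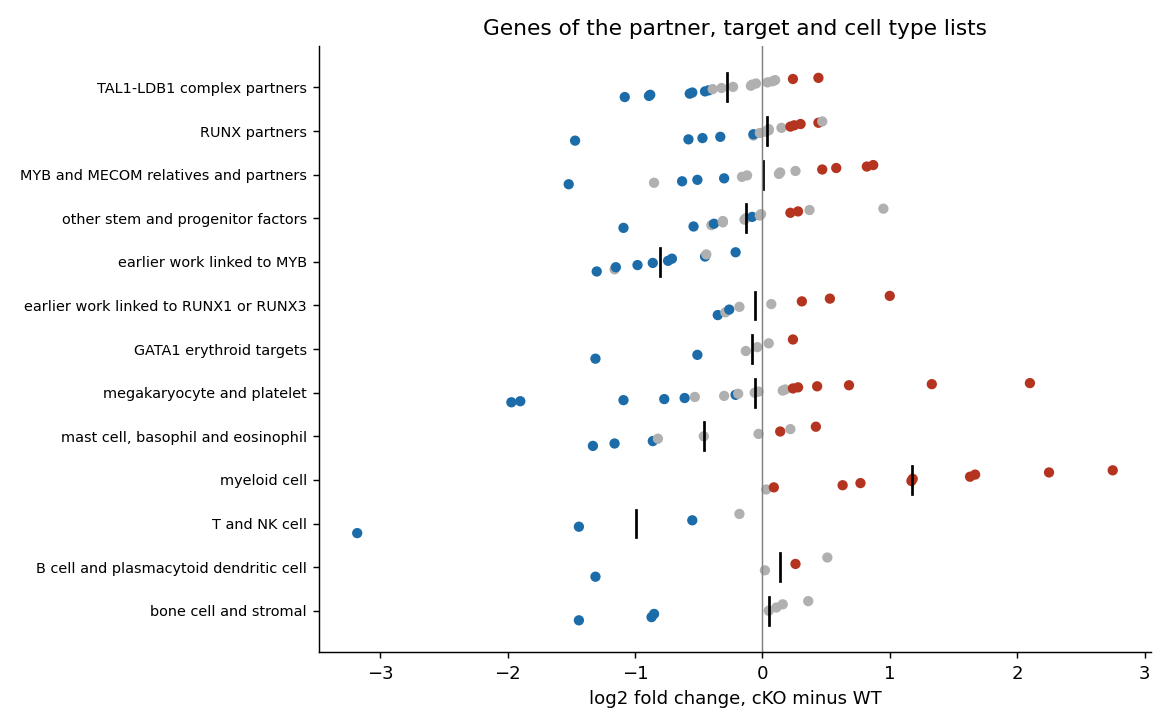
Each point is the log2 fold change (cKO minus WT) of 1 tested gene of a list, blue where it fell, red where it rose and grey where it did not pass, and black bars are list medians. The list medians run from -0.99 (T and NK cell genes) to 1.17 (myeloid cell genes), and the TAL1 and LDB1 complex partners have a median of -0.27.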

How the data were processed

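The deposited table holds 1 score per gene and library on a log scale of unstated base. The tools named, without role or order, per the submitters' processing notes were DESeq2, featureCounts, HISAT2 2.1.0 and CASAVA, and the build was GRCm38. The scores were multiplied by 0.693 (ln 2): on that reading replicate noise was 1.10 (WT) and 1.31 (cKO) times Poisson noise, against 4.85 and 5.94 for plain log2. Each column carried the title of its sample, and 0 value columns stayed unused.

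Genes that reached a score of 1 in 2 or more libraries were tested with limma 3.58.1 in R 4.3.3 (mean-variance trend, two-sided, Benjamini-Hochberg over 15527 genes, threshold 0.05). The test was also run on simulated data whose noise depended on the level alone. That run cannot show how the test does where noise differs between genes of like level. SEs come from the moderated variance. The 10 genes and the 13 gene lists were chosen with earlier results of these data known; of 242 listed genes 154 had a row. Genes to name were, per list, up to 4 called ones with the smallest p-values and up to 2 others with the highest levels; some of the latter were not used. Positions and exon lengths come from GENCODE M21 on GRCm38. Alternatives covered filters, prior variance, scaling between libraries, a replicate block, left-out libraries, the scale of the scores and the threshold. Tables and plots were made in Python 3.11.15 (matplotlib 3.10.9, numpy 2.4.6, pandas 2.3.3).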

Additional observations from a re-analysis of the deposited data

How the results depend on the processing

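With a prior variance that did not follow the level, the calls numbered 2267 (1177 higher, 1090 lower) instead of 5803, and 2 of the 10 genes, Mecom and Gata2, instead of 6; of the listed genes 45 were called instead of 82. Of the other named genes, Tcf12, Prmt1, Tle5, Sin3a, Cbfb, Mycn, Etv6 and Hemgn also lost their calls there. So did Tfrc, Add2, Hdc, Cd200r3, Cpa3, Nfkbia, Ccnd3 and Cd79b. The cause of these losses was not tested. With no filter on low values 3 of the 10 genes passed, Mecom, Gata2 and Tal1. Leaving out 1 library gave 4672 to 5810 calls, and 4 to 5 of the 10 genes. At an adjusted p under 0.01, 5 of the 10 passed, without Runx2. Deviations of same-numbered WT and cKO libraries had a correlation of 0.01 over genes. That cannot settle whether the replicate numbers mark pairs, since it rests on 1 difference per group. With a replicate block 6026 genes and 6 of the 10 passed. Signs turned for Lmo2 (from -0.49 to 0.13 with 1 library left out), Fli1 (from -0.04 to 0.01 with 1 library left out, 0.05 with equal medians), Hhex (0.04 with equal medians), Epor (0.02 with equal medians and 0.02 with quantile normalization) and Ptprc (-0.09 with quantile normalization, -0.10 with equal library sums, and 0.09 with a call as a rise with equal medians). Of 140 repeats over the 10 genes, 17 lost a call, 2 gained one and 1 turned sign. The table gives no counts; its levels resemble counts only through the scale inferred from replicate noise, so no limit from counting is given.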

Other observations

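The 3 genes whose values over the 4 libraries were closest to those of Mecom, by the root mean square difference of log2 deviations from the gene mean, were Asns, Ipo7 and Alad (0.012, 0.012 and 0.013). Asns, the asparagine synthetase gene, stood at 10.85 and 10.87 in WT, against 10.23 and 10.29 in cKO, and Alad, a gene of haem synthesis, at 10.68 and 10.70 in WT and 10.04 and 10.12 in cKO. Closest to Gata2 were Slc43a3, Gpr146 and P2rx7 (0.008, 0.009 and 0.010). Over 4 libraries such likeness is common: of 8470 genes compared, 580 lay within 0.1 of Mecom and 1081 within 0.1 of Gata2.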
